A study of Homo sapiens with 16 samples.

Results

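This account follows 44 genes that build and control the mitotic spindle in 2 human acute myeloid leukaemia cell lines. A list of 45 gene names was matched to the gene names of the authors' count table, and 44 of its 60603 rows carried one of them. KIF23, a kinesin of the central spindle, was not found by name because its row carries the symbol AC027237.1, so its values are given separately and enter no count. All 44 genes passed the filter on low counts in both lines. The rule matched names and used no measured value, but the members were chosen with earlier results of these data known. By role the genes are 6 cyclins and cyclin kinase regulators, 3 further mitotic kinases, 5 spindle checkpoint genes, 4 subunits of the chromosomal passenger complex, 7 centromere and outer kinetochore genes, 10 kinesins and spindle proteins, 2 cytokinesis genes, 3 genes of the anaphase-promoting complex pathway (APC/C) and its target securin, the 2 genes TOP2A and MKI67, and the 2 transcription factors FOXM1 and MYBL2.

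RNA had been measured in 16 libraries, 2 for each of 8 groups. SKNO-1, a myeloid line that carries the RUNX1-RUNX1T1 fusion, and U-937, a monocyte-like line, were each treated with all-trans retinoic acid (ATRA), with Corin, with ATRA and Corin, or with DMSO as solvent control. Treatment lasted 24 h and each agent was at 0.1 µM. ATRA activates retinoic acid receptors, and Corin inhibits both enzymatic arms of the CoREST repressor complex, the demethylase LSD1 and the deacetylases HDAC1 and HDAC2. The medium of SKNO-1 also held GM-CSF at 10 ng/mL, which cannot be told apart from the origin of the lines in any comparison between them. The labels do not say that the 2 libraries of a group came from separate cultures, so p-values measure only the spread between libraries, which may be technical.

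In a dividing cell the cyclins activate CDK1, CDC25 phosphatases release its inhibitory phosphates, and PLK1 and the Aurora kinases then drive chromosome condensation and spindle assembly. The spindle checkpoint (MAD2L1, BUB1B, BUB3) holds CDC20 back until every kinetochore is attached, after which APC/C destroys cyclin B and securin. Most of these genes are transcribed late in the cell cycle, from promoters in which cell cycle genes homology regions (CHR elements) recruit the MuvB complex with MYBL2 and FOXM1, often together with CCAAT boxes. In bulk RNA, fewer cells in mitosis and less RNA of a gene per cell cannot be told apart.

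Promoter windows of 300 bases, from 250 before to 50 after an annotated start, were taken from RefSeq on GRCh38.p14 for 8 of the members whose results are described below. They are printed 5′ to 3′ on the strand of the gene, with CHR elements (TTTGAA or TTCGAA, on either strand) and CCAAT boxes (CCAAT on either strand) in capitals. Of the 20 members that have a window and are given below with every library, 12 are not printed for length, a choice made after values were seen. The choice favoured windows with a CHR element, so the printed ones are no sample of the 20. Of the 20, 11 hold both motifs in at least 1 window, NUF2 and ANLN hold a CHR element only, CCNA2, CCNB1, KIF20A, SPC24 and AURKB hold a CCAAT box only, and MYBL2 and CENPE hold neither. Only the letters above were searched, in these windows. A gene placed here without a CHR element may hold one spelled otherwise or lying elsewhere. The windows lie at chr4:120066799-120067098 on the minus strand for MAD2L1, chr1:37692266-37692565 on the plus strand for CDCA8, chr2:168890381-168890680 on the minus strand for SPC25, chr1:43358731-43359030 on the plus strand for CDC20, chr10:128126374-128126673 on the minus strand for MKI67, chr15:41332631-41332930 on the plus strand for NUSAP1, chr17:40417847-40418146 on the minus strand for TOP2A and chr17:8210176-8210475 on the minus strand for AURKB. All 8 belong to genes that fell in U-937 with both agents. The first 5 genes did not rise in SKNO-1, and the last 3 rose there with Corin or with both agents.
MAD2L1: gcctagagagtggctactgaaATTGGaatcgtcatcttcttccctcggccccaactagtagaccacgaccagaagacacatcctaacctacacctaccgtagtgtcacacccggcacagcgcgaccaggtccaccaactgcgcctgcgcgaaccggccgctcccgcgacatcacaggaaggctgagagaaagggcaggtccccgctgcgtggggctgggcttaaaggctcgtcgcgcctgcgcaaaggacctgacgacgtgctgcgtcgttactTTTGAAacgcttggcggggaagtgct
CDCA8: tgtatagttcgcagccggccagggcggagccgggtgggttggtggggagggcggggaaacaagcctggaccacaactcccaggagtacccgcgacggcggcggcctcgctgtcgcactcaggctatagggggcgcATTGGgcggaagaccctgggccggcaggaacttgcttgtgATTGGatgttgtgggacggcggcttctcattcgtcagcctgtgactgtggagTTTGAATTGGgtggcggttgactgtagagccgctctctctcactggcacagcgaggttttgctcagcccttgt
SPC25: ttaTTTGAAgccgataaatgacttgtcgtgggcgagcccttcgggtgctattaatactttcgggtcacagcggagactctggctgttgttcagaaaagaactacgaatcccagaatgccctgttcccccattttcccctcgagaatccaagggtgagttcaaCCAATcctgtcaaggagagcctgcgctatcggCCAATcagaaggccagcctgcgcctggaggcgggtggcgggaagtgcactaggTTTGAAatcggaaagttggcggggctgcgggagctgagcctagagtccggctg
CDC20: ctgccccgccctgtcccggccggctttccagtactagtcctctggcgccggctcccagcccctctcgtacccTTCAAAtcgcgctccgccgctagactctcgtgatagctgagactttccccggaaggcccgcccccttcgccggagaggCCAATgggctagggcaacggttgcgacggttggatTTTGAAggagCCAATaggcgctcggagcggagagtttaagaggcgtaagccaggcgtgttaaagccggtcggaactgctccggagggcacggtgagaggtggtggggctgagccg
MKI67: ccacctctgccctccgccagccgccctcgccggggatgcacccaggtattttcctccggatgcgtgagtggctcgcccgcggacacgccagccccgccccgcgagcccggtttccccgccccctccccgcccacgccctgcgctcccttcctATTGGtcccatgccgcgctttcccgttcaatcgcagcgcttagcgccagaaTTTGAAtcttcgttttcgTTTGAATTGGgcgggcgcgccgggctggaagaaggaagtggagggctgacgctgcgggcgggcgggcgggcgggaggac
NUSAP1: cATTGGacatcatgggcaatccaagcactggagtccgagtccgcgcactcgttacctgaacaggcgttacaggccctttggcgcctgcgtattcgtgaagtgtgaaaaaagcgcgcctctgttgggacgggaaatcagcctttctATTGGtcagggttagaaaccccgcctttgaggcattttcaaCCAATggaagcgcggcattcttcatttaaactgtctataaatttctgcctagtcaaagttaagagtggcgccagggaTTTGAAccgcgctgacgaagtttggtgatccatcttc
TOP2A: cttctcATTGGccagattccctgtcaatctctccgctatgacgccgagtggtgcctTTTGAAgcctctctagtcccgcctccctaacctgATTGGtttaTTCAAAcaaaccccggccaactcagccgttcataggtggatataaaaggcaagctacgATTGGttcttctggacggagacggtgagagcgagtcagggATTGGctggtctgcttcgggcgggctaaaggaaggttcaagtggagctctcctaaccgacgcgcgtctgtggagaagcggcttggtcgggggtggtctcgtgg
AURKB: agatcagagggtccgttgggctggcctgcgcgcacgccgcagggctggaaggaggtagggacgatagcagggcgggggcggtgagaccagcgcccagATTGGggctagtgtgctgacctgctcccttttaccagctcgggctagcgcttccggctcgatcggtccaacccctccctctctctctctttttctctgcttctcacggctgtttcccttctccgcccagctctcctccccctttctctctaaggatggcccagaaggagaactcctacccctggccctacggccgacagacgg

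Positions are counted from the annotated start, taken as 0. CDCA8 held 1 CHR element at position -23 and a CCAAT box on the other strand at -18 that overlaps it, with further CCAAT boxes at -115 and -75. MKI67 held CHR elements at -47 and -29 with CCAAT boxes at -98 and -24. CDC20 held CHR elements at -178 and -65 and CCAAT boxes at -100 and -55. The CHR elements of SPC25 stood at -247 and -3, and those of MAD2L1 and NUSAP1 lay after the start, at 25 and 14. TOP2A held its CHR elements farther upstream, at -194 and -151, among 4 CCAAT boxes, and AURKB held no CHR element of these letters in the window printed and 1 CCAAT box at -153. The AURKB windows lay inside the gene's GENCODE span, which begins at chr17:8210600 on the minus strand. Sequence before that outermost start was not searched, so the absence holds for these windows only.

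Windows were found for 37 of the 44 members, and none for AURKA, BUB3, TTK, BIRC5, TPX2, UBE2C and FOXM1. At least 1 CHR element stood in a window of 27 of these 37 genes (73.0%), against 19.5% of the 27305 genes with a window. A CCAAT box stood in 30 (81.1%), against 39.7%, and both motifs stood in 23 (62.2%), against 9.02%. Over the 47 windows of the members, 23 (48.9%) held at least 2 CCAAT boxes, against 10.8% of all 35116 windows. A match is a description of the letters and not a bound site, and the motifs can overlap each other, as in CDCA8.

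**Figure D1:**
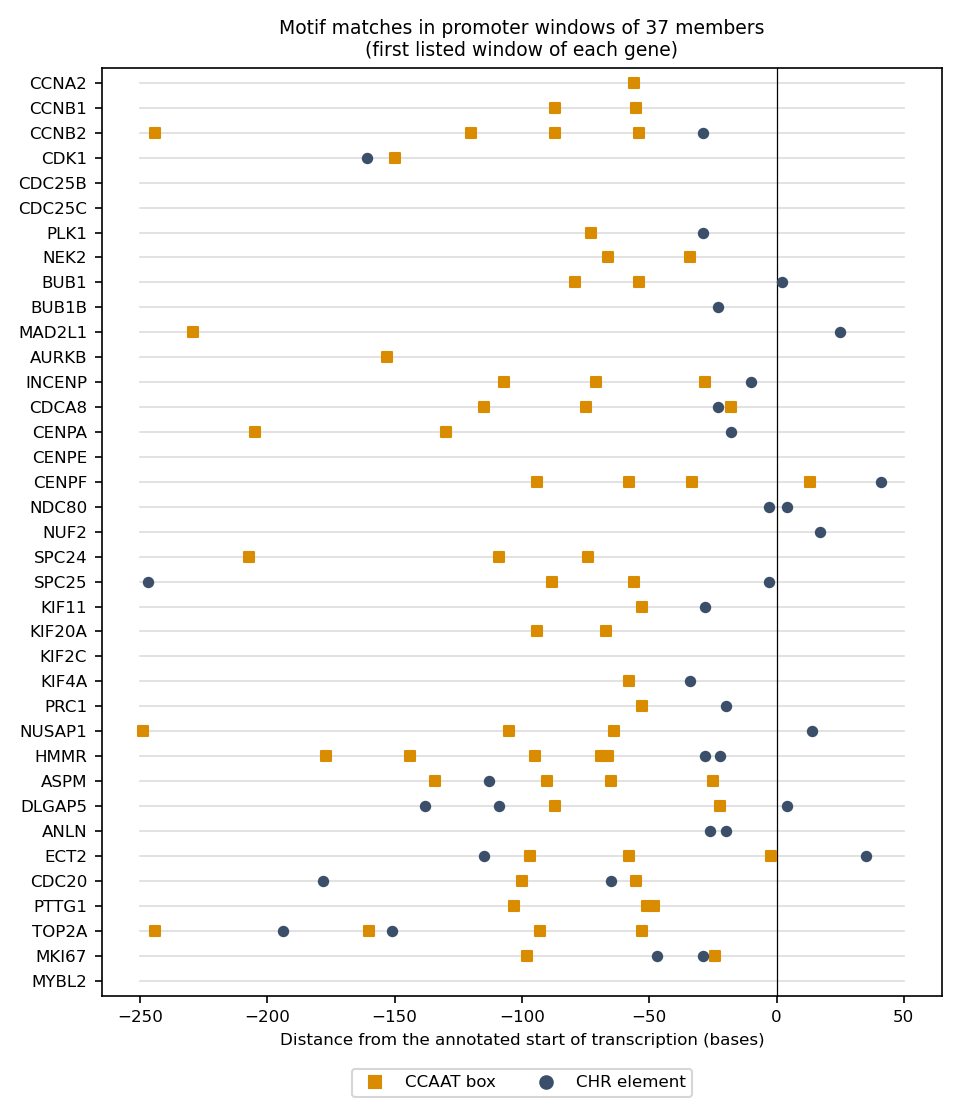
Position of CHR elements and CCAAT boxes in 1 promoter window of each of the 37 members with a window, in bases from the annotated start (x axis), with 1 line per gene. CCAAT boxes lie mostly upstream of the start. Counting every window, 27 of the 37 genes have a CHR element, which for CDC25B and CDC25C lies in windows not drawn.

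The authors' estimated counts summed to 28.4 to 37.8 M per library. Levels are given in CPM, counts scaled to 1 M on TMM-scaled library totals, and compare libraries for 1 gene. Levels of different genes are compared in TPM, which also divides by transcript length. Differences are log2 fold changes with their standard errors (SE), and a gene is said to rise or fall where edgeR's quasi-likelihood test gave a Benjamini-Hochberg adjusted p under 0.05 over all genes tested. The 3 comparisons with DMSO in a line share its 2 DMSO libraries. In the SKNO-1 DMSO pair the log2 difference between the libraries had an SD of 0.361 over 9354 well-expressed genes, where the other 7 pairs had 0.108 to 0.208. That difference followed the GC content of the genes (Pearson's r = 0.796 across genes, which are not independent replicates). Other pairs showed such a trend too, with r = 0.578 in U-937 with DMSO and 0.389 in U-937 with both agents. In SKNO-1 with ATRA it was -0.422. The pair of U-937 libraries with both agents differed in level over the members, with replicate 1 below replicate 2 for 41 of 44 genes and a median log2 difference of -0.29.

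Markers of the lines fitted the labels for RUNX1T1, which held 0 to 1 counts in each U-937 library, while the myeloid enzyme MPO was nearly absent from U-937. Summed over 6 myeloid markers, the level in U-937 was 626 to 657 CPM with DMSO, 815 to 854 with ATRA, 2279 to 2667 with Corin and 3147 to 3435 with both agents. LYZ, the secreted lysozyme of monocytes and granulocytes, made up most of this difference, with 208 to 236 CPM in DMSO and 2455 to 2669 with both agents. The same sum in SKNO-1 was 3186 to 4148 CPM with DMSO, 3952 to 4298 with ATRA, 2496 to 2655 with Corin and 3073 to 3162 with both. There MPO made up most of it, at 2805 to 3786 CPM with DMSO, 1847 to 1977 with Corin and 2408 to 2505 with both. LYZ went the other way in SKNO-1, at 61.7 to 68.8 CPM with DMSO, 322 to 343 with Corin and 382.5 to 395.2 with both. Of the 4 fibroblast and endothelial markers PECAM1, which myeloid cells also carry, followed the treatment (56.2 to 61.5 CPM with DMSO and 254.5 to 292.5 with both agents in U-937, and 7.23 to 8.77 and 21.5 to 23.2 in SKNO-1). Epithelial markers summed to at most 0.190 CPM in every library and lymphoid markers to at most 2.67. The part of the myeloid markers in the results below was not tested.

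In DMSO all 44 genes were expressed in both lines. Mean levels ran from 5.26 to 136.8 TPM in SKNO-1 (median 38.9) and from 5.17 to 172.5 TPM in U-937 (median 44.2), with n = 2 libraries each. CDC25C, the phosphatase that switches on CDK1 at mitotic entry, was lowest in both lines, at 5.26 ± 1.44 TPM (SD) in SKNO-1 and 5.17 ± 0.339 TPM in U-937. At the top of SKNO-1 stood cyclin B1 (CCNB1, 137 ± 35.9 TPM), securin (PTTG1, 135 ± 35.4 TPM) and topoisomerase II alpha (TOP2A, 126 ± 38.6 TPM), whose order is within their spread. In U-937 the order began with the checkpoint kinase BUB1 (172 ± 13.4 TPM), followed by CCNB1 (159 ± 14.7 TPM), PTTG1 (148 ± 8.51 TPM) and the spindle assembly factor TPX2 (146 ± 9.73 TPM). BUB1 exceeded CCNB1 there by about the SD of either, and CCNB1, PTTG1 and TPX2 did not differ beyond their spread.

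**Figure D2:**
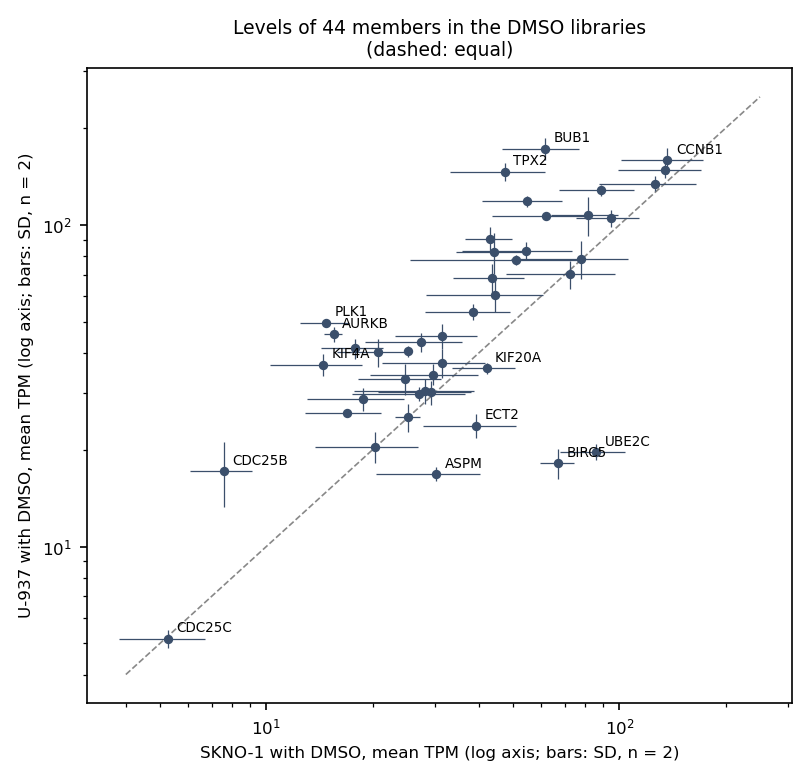
Mean level of each member in DMSO in U-937 (y axis) against SKNO-1 (x axis), in TPM on log axes, with bars for the SD over 2 libraries and the dashed line for equal levels. Most genes lie near the line, while UBE2C and BIRC5 lie far below it (higher in SKNO-1) and PLK1, TPX2, AURKB and KIF4A lie above it.

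Between the lines in DMSO, 19 members were higher in U-937 and 8 were lower, where 31.7% of the 19872 genes tested were higher and 33.1% lower (64.8% in all). The members' median log2 difference was 0.18, against -0.01 over all genes. Scaling by library totals, which moves the median of all genes from -0.01 to 0.15, turned the split to 24 and 5. The 8 lower in U-937 were UBE2C, BIRC5, ASPM, ECT2, KIF20A, SPC24, CDC25C and CENPE.

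UBE2C, the ubiquitin-conjugating enzyme of APC/C, was at 67.95 and 63.8 CPM in the SKNO-1 DMSO libraries and at 12.1 and 13.2 in U-937. Both DMSO libraries of SKNO-1 were above both of U-937, a log2 difference (U-937 minus SKNO-1) of -2.38 ± 0.11 (SE, adjusted p = 2.31e-13). In TPM it ranked 6 of the 44 members in SKNO-1 (85.9 ± 18.1 TPM) and 40 in U-937 (19.7 ± 1.11 TPM). BIRC5 (survivin), which brings Aurora B to the centromere, was at 198 and 169 CPM in SKNO-1 and 37.2 and 39.7 in U-937, a difference of -2.25 ± 0.10 (SE, adjusted p = 2.84e-13). Its partner AURKB went the other way, with 19.2 and 15.2 CPM in SKNO-1 and 39.8 and 40.7 in U-937 (1.23 ± 0.11 SE, adjusted p = 1.46e-08). The passenger complex therefore held members of opposite sign between these lines.

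ASPM, which gathers microtubule minus ends at spindle poles, was at 357 and 414 CPM in SKNO-1 and 152 and 159 in U-937 (-1.31 ± 0.12 SE, adjusted p = 9.31e-09). ECT2, the exchange factor that starts the cleavage furrow, was at 123 and 153 CPM against 65.4 and 73.98 (-0.99 ± 0.11 SE, adjusted p = 3.67e-07). PLK1 was among the genes higher in U-937, with 24.5 and 20.4 CPM in SKNO-1 and 60.8 and 56.6 in U-937 (1.39 ± 0.11 SE, adjusted p = 1.26e-09). TPX2, which activates Aurora A on spindle microtubules, was at 185 and 204 against 469 and 499 CPM (1.31 ± 0.10 SE, adjusted p = 6.07e-10). In all 4 the DMSO libraries of one line lay apart from those of the other. The remaining members lower in U-937 differed by -0.50 (KIF20A), -0.40 (SPC24), -0.37 (CDC25C) and -0.31 (CENPE) on the log2 scale.

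With ATRA and Corin together, all 44 members fell in U-937, where 32.2% of the 17717 genes tested fell. The median log2 change of the members was -1.53, against 0.03 over all genes, and 40 of the 44 fell by at least 1 on the log2 scale. The changes ran from -2.62 for MAD2L1 to -0.34 for BUB3, both of the spindle checkpoint. For every member both libraries with both agents were below both DMSO libraries, as for 40.3% of all genes tested. The CPM of the 44 genes summed to 7271 and 7665 with DMSO and to 2406 and 2960 with both agents. BUB3 was the member lost when a library was left out (-0.29, adjusted p = 0.0602 without DMSO replicate 2, and -0.24, adjusted p = 0.0879 without replicate 1 of both agents).

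**Figure D3:**
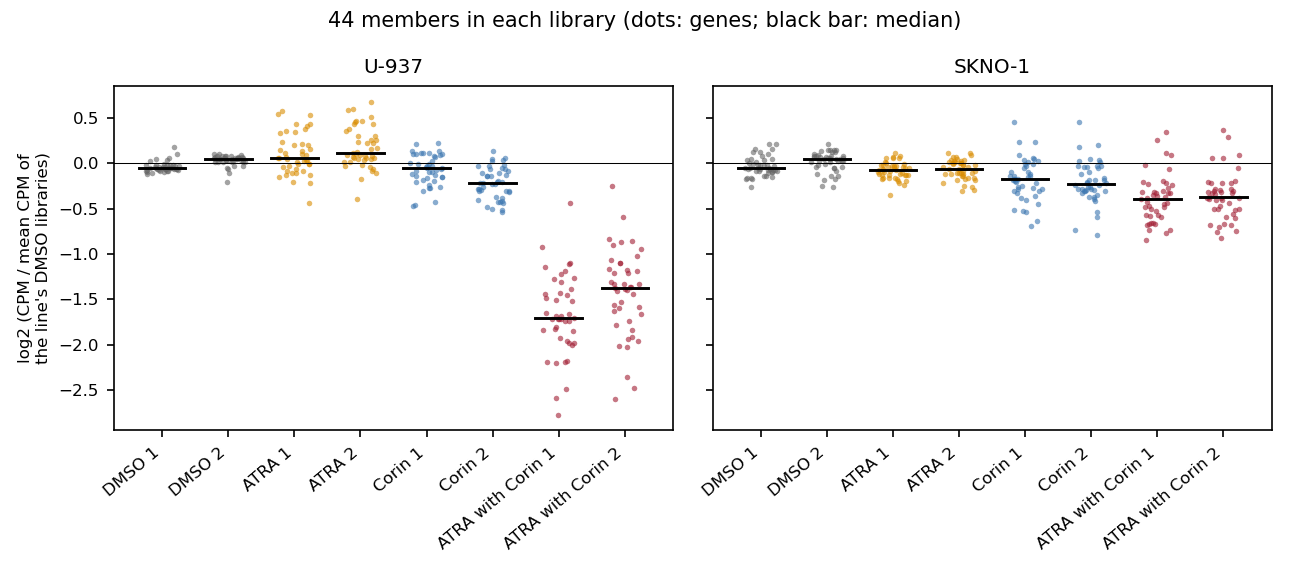
Level of each member in each library as log2 of its CPM over the mean CPM of the line's DMSO libraries (y axis), with 1 dot per gene and a bar at the median, for the 8 libraries of each line. Only the 2 U-937 libraries with both agents have all 44 dots below 0, with medians of -1.71 and -1.37, while the SKNO-1 libraries with both agents have medians of -0.39 and -0.37.

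Among the cyclins and CDK1 regulators in U-937, cyclin A2 (CCNA2), which acts with CDK1 before mitotic entry, changed most. CCNA2 was at 147 and 168 CPM with DMSO, 153 and 156 with ATRA, 138 and 118 with Corin and 34.3 and 41.7 with both agents. Both libraries with both agents were far below the other 6, a change from DMSO of -2.05 ± 0.11 (SE, adjusted p = 1.36e-13). CCNB1, the main activator of CDK1, was at 182 and 198 CPM with DMSO, 174 and 195 with ATRA, 205 and 172 with Corin and 56.99 and 71.6 with both agents. Its libraries with 1 agent overlapped those with DMSO, and with both agents it fell (-1.56 ± 0.12 SE, adjusted p = 8.48e-11). CDC25C, at 8.85 and 9.80 CPM with DMSO, 9.75 and 9.71 with ATRA, 7.90 and 7.13 with Corin and 2.67 and 3.70 with both agents, also fell (-1.55 ± 0.18 SE, adjusted p = 7.46e-08). All 6 genes of the group fell, with a median log2 change of -1.53.

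PLK1, the Polo-like kinase needed for centrosome maturation and spindle assembly, stood at 60.8 and 56.6 CPM with DMSO, 56.1 and 55.5 with ATRA, 63.3 and 56.2 with Corin and 18.5 and 17.5 with both agents. The 6 libraries with DMSO or 1 agent spanned a narrow range and both libraries with both agents were below it, a change of -1.70 ± 0.11 (SE, adjusted p = 1.23e-12). Aurora A (AURKA) and NEK2, which act at the centrosome, fell by less, with changes of -1.31 and -1.31 on the log2 scale. AURKA counts were not whole in any of the 16 libraries, so its values are estimates by the model that divides reads among loci.

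In the spindle checkpoint the range was widest. MAD2L1, the inhibitor that binds CDC20 at unattached kinetochores, was at 96.1 and 108 CPM with DMSO, 75.2 and 77.7 with ATRA, 84.8 and 77.3 with Corin and 14.9 and 18.3 with both agents. Its 4 libraries with 1 agent were below both DMSO libraries and the libraries with both agents were lower still, a change of -2.62 ± 0.12 (SE, adjusted p = 1.86e-15). BUB1B, which joins MAD2L1 and BUB3 in the checkpoint complex, changed by -2.05 ± 0.11 (SE, adjusted p = 3.1e-14), and TTK, the kinase that starts the signal, by -1.75 ± 0.13 (SE). BUB1 fell less (-0.74 ± 0.11 SE), and BUB3, which also has roles outside the checkpoint, least (-0.34 ± 0.10 SE, adjusted p = 0.00632). MAD2L1 had counts that were not whole in 12 libraries, so part of its reads was assigned by the model.

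All 4 subunits of the chromosomal passenger complex, which corrects faulty kinetochore attachments, fell in U-937. CDCA8 (borealin) was at 87.0 and 93.1 CPM with DMSO, 91.9 and 88.1 with ATRA, 81.8 and 73.05 with Corin and 22.7 and 23.1 with both agents. The level with both agents was the lowest of the 4 groups without overlap, a change of -1.97 ± 0.10 (SE, adjusted p = 4.24e-14). AURKB, the kinase of the complex, was at 39.8 and 40.7 CPM with DMSO, 44.8 and 49.5 with ATRA, 42.2 and 39.4 with Corin and 12.8 and 13.9 with both agents, and fell with both agents (-1.59 ± 0.11 SE, adjusted p = 7.34e-12). BIRC5 stood at 37.2 and 39.7 CPM with DMSO, 39.97 and 43.0 with ATRA, 44.97 and 39.96 with Corin and 11.96 and 14.1 with both agents and fell as well (-1.56 ± 0.12 SE, adjusted p = 2.83e-11), as did the scaffold INCENP (-1.41 ± 0.11 SE). The 4 changes lay between -1.41 and -1.97, with a median of -1.57.

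The outer kinetochore carries the 4-subunit NDC80 complex, the coupler that grips microtubule ends. SPC25, one of its subunits, was at 26.4 and 28.6 CPM with DMSO, 29.8 and 31.0 with ATRA, 22.3 and 20.6 with Corin and 4.89 and 5.39 with both agents. The libraries with both agents were far below all others, and the change was -2.42 ± 0.13 (SE, adjusted p = 4.61e-14). SPC24, its partner, was at 49.8 and 43.02 CPM with DMSO, 62.01 and 63.5 with ATRA, 49.8 and 43.3 with Corin and 12.9 and 13.4 with both agents, a change of -1.81 ± 0.11 (SE, adjusted p = 1.41e-12). NUF2 was at 55.5 and 56.9 CPM with DMSO, 52.3 and 58.6 with ATRA, 41.9 and 39.2 with Corin and 15.5 and 15.7 with both agents. It was lowest with both agents and also lower with Corin than with DMSO, and it changed by -1.84 ± 0.11 (SE, adjusted p = 2.98e-13) with both. CENPE, a kinetochore motor, was at 138 and 139.9 CPM with DMSO, 129 and 144 with ATRA, 100.1 and 102 with Corin and 35.6 and 45.8 with both agents and changed by -1.76 ± 0.11 (SE, adjusted p = 1.46e-12). The 7 genes of the group all fell, with a median of -1.76.

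TPX2 led the kinesins and spindle proteins in U-937, at 469 and 499 CPM with DMSO, 499.7 and 488 with ATRA, 470.3 and 439 with Corin and 122 and 153 with both agents. The first 6 values lay close together and the last 2 far below them, a change of -1.81 ± 0.11 (SE, adjusted p = 1.58e-12). NUSAP1, which bundles microtubules near chromosomes, was at 243 and 256 CPM with DMSO, 362 and 377 with ATRA, 289 and 253 with Corin and 109.8 and 138 with both agents. Its ATRA libraries were the highest and those with both agents the lowest, and with both it fell (-1.01 ± 0.11 SE, adjusted p = 3.3e-08). KIF20A, a kinesin of the central spindle, was at 90.3 and 100.2 CPM with DMSO, 139 and 144 with ATRA, 89.9 and 73.6 with Corin and 43.2 and 53.2 with both agents, with the same order of groups at its ends (-0.98 ± 0.11 SE, adjusted p = 1.01e-07 with both agents). ASPM was at 152 and 159 CPM with DMSO, 179.9 and 215 with ATRA, 140.3 and 134 with Corin and 54.8 and 72.5 with both agents and fell with both agents (-1.28 ± 0.12 SE, adjusted p = 8.67e-09). All 10 genes of the group fell, with a median of -1.43. KIF23, listed under its other symbol and outside these counts, was at 143 and 154 CPM with DMSO, 143 and 148 with ATRA, 115 and 107 with Corin and 36.6 and 44.2 with both agents, a change of -1.87 on the log2 scale with both.

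ECT2 was at 65.4 and 73.98 CPM with DMSO, 62.8 and 74.03 with ATRA, 70.1 and 64.9 with Corin and 26.7 and 32.5 with both agents. Only the libraries with both agents stood apart from DMSO, a change of -1.23 ± 0.12 (SE, adjusted p = 1.9e-09). ANLN (anillin), the scaffold of the contractile ring, was at 182 and 205 CPM with DMSO, 289 and 310.3 with ATRA, 189 and 176 with Corin and 79.8 and 101 with both agents. With ATRA it was above DMSO and with both agents below it, and the change with both was -1.09 ± 0.11 (SE, adjusted p = 7.46e-09).

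CDC20, the activator of APC/C that the checkpoint restrains, was at 101 and 114 CPM with DMSO, 139.5 and 139 with ATRA, 114 and 97.5 with Corin and 44.6 and 47.02 with both agents. ATRA libraries were above DMSO, Corin libraries overlapped it and those with both agents were below it, a change of -1.22 ± 0.10 (SE, adjusted p = 2.97e-10). UBE2C was at 12.1 and 13.2 CPM with DMSO, 17.1 and 17.98 with ATRA, 11.6 and 10.9 with Corin and 5.85 and 6.77 with both agents and changed by -0.996 ± 0.14 (SE, adjusted p = 1.39e-06). Securin (PTTG1) changed by -1.18 ± 0.12 (SE) and had whole counts in every library. These 3 genes had one of the smaller medians, -1.18.

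MKI67, which coats mitotic chromosomes and is the Ki-67 proliferation marker, was at 874 and 889 CPM with DMSO, 1115 and 1036 with ATRA, 730.1 and 868 with Corin and 191 and 216 with both agents. ATRA libraries were the highest and those with both agents far below all others, a change of -2.11 ± 0.12 (SE, adjusted p = 1.85e-13). TOP2A, which untangles sister chromatids, was at 684 and 719.6 CPM with DMSO, 826 and 949 with ATRA, 769.9 and 676 with Corin and 300.1 and 384 with both agents and changed by -1.03 ± 0.12 (SE, adjusted p = 1.12e-07). MYBL2 (B-Myb), a transcription factor of the MuvB complex, was at 106 and 97.5 CPM with DMSO, 108 and 109 with ATRA, 109 and 100.1 with Corin and 16.9 and 16.7 with both agents. Its 6 libraries with DMSO or 1 agent lay between 97.5 and 109 CPM, and with both agents it was lower (-2.59 ± 0.10 SE, adjusted p = 3.76e-16). FOXM1, which joins the same complex later in the cycle, changed by -2.10 ± 0.10 (SE, adjusted p = 1.87e-14). The 2 transcription factors had the largest median fall of the 10 role groups, -2.35.

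**Figure D4:**
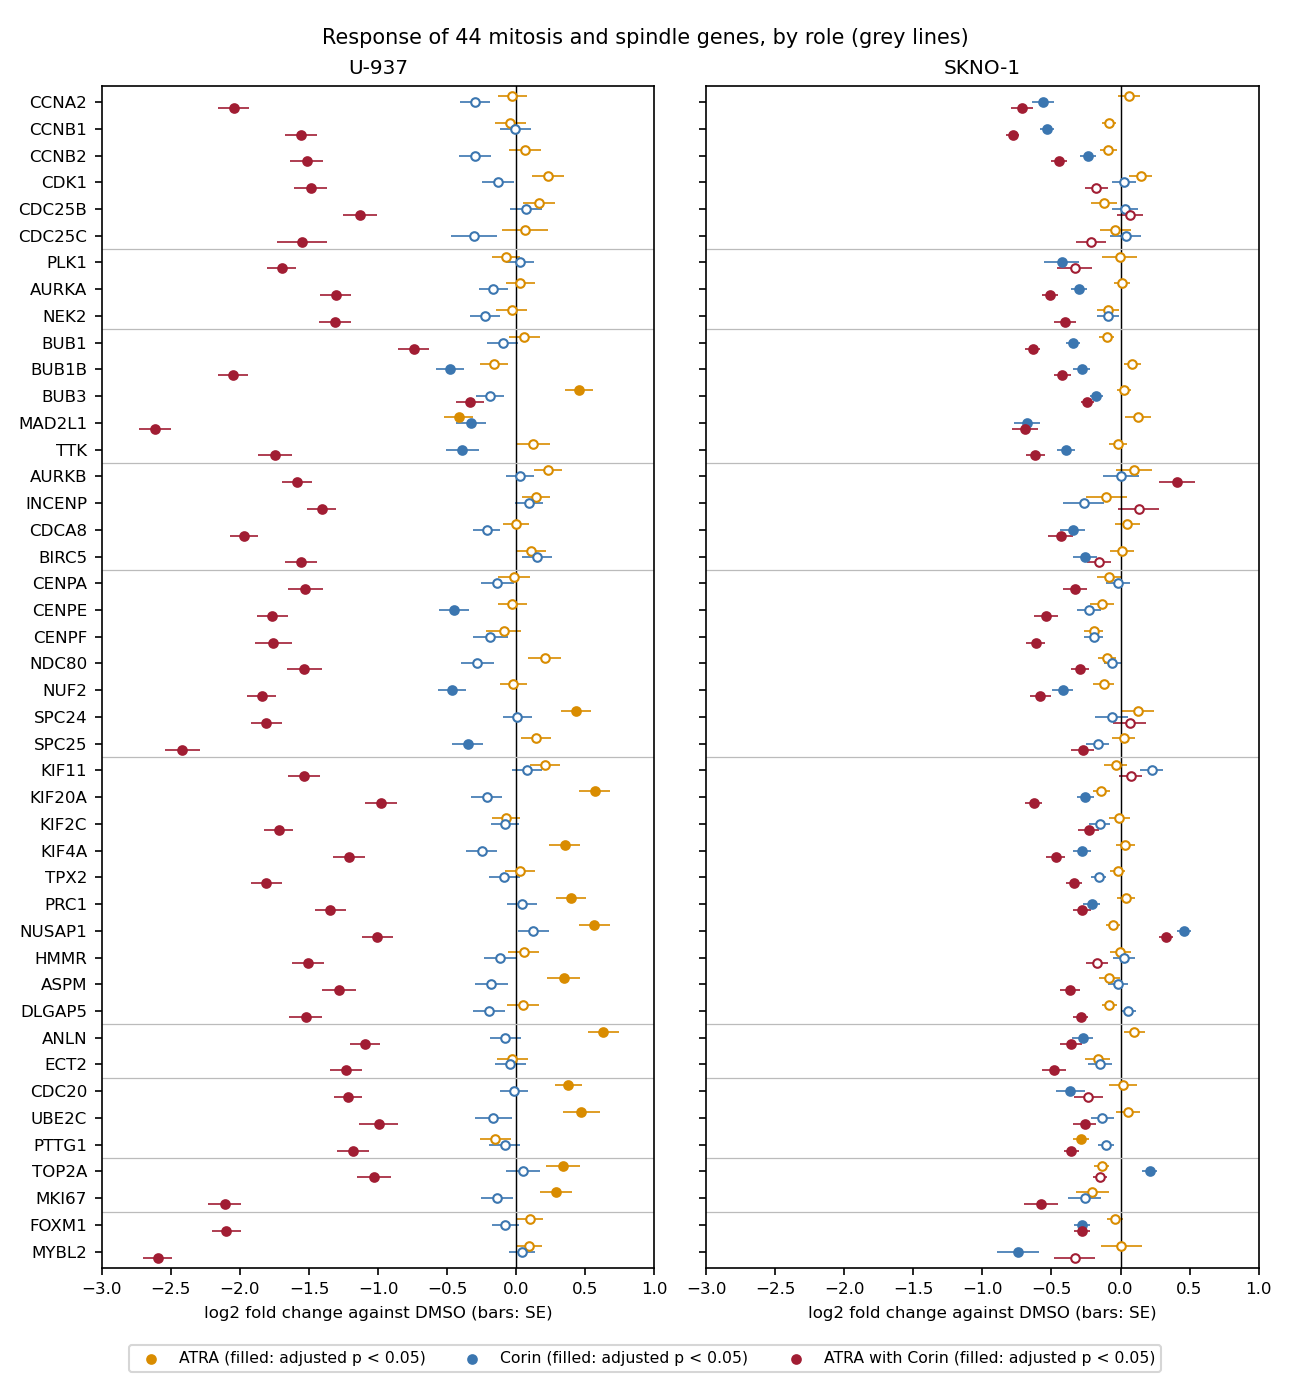
Log2 change from the line's DMSO libraries (x axis) with its SE for each member, grouped by role, for ATRA, Corin and both agents in U-937 and SKNO-1; filled points have an adjusted p under 0.05 in edgeR's quasi-likelihood test. In U-937 the points for both agents lie between -2.62 and -0.34, apart from most points of the single agents, while in SKNO-1 no change of any member reached 1 in size.

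ATRA alone raised 12 members in U-937 and lowered 1, where 21.7% of all genes tested rose and 20.1% fell (41.8% in all). The share of members that rose (27.3%) was near that of all genes, and the share that fell (2.27%) was below it. The members' median log2 change was 0.09, against 0.02 over all genes. Their summed CPM was 7271 and 7665 with DMSO and 8163 and 8609 with ATRA. Summed TPM did not rise, with means of 2765 ± 193 (SD) with DMSO and 2604 ± 133 with ATRA. The cause of this difference between the measures was not tested. Both ATRA libraries were above both DMSO libraries for 22 members (37.2% of all genes tested) and below for 5 (35.3%). The genes that rose were ANLN, KIF20A, NUSAP1, UBE2C, BUB3, SPC24, PRC1, CDC20, KIF4A, ASPM, TOP2A and MKI67, which included 5 of the 10 kinesins and spindle proteins, 2 of the 3 APC/C and securin genes and none of the 6 cyclins and CDK1 regulators. In mean TPM, NUSAP1 went from 128.0 with DMSO to 162.7 with ATRA, while ASPM stood at 16.81 and 16.82. MAD2L1 fell. Leaving out DMSO replicate 1 or ATRA replicate 2 left 7 members called, and leaving out DMSO replicate 2 left 8.

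ANLN had the largest rise with ATRA, 0.63 ± 0.11 (SE, adjusted p = 5.78e-05), followed by NUSAP1 (0.57 ± 0.11 SE, adjusted p = 0.000221) and KIF20A (0.57 ± 0.11 SE, adjusted p = 0.000256). For these genes the ATRA libraries, given above, lay over both DMSO libraries without overlap. MAD2L1, at 75.2 and 77.7 CPM with ATRA, fell below its DMSO values of 96.1 and 108 (-0.42 ± 0.11 SE, adjusted p = 0.0025). CDC20 rose by 0.38 ± 0.10 (SE, adjusted p = 0.00393) and UBE2C by 0.47 ± 0.13 (SE, adjusted p = 0.00584). In the checkpoint group BUB3 rose (0.45 ± 0.10 SE, adjusted p = 0.000931) where MAD2L1 fell. NUSAP1 had counts that were not whole in 9 libraries, KIF4A and PRC1 in all 16, and the use of strand in the counting is not given in the sources used here, so genes overlapping NUSAP1 (OIP5, OIP5-AS1) can share its reads.

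Corin alone lowered 6 members in U-937 and raised none, where 4.40% of all genes fell and 8.55% rose. The 6 were 13.6% of the members, and the members' median log2 change was -0.13, against 0.00 over all genes. They were the checkpoint genes BUB1B (-0.48 ± 0.10 SE, adjusted p = 0.00188), TTK (-0.39 ± 0.12 SE, adjusted p = 0.037) and MAD2L1 (-0.33 ± 0.10 SE, adjusted p = 0.0404) and the kinetochore genes NUF2 (-0.47 ± 0.10 SE, adjusted p = 0.00244), CENPE (-0.45 ± 0.11 SE, adjusted p = 0.00531) and SPC25 (-0.35 ± 0.11 SE, adjusted p = 0.039). Both Corin libraries were below both DMSO libraries for 21 members (25.7% of all genes) and above for 2 (26.6%). The count was 3 with the replicate number as a block, and also when DMSO replicate 1, DMSO replicate 2 or Corin replicate 2 was left out, and 8 without Corin replicate 1. Corin replicate 2 was below replicate 1 for all but 3 members, with a median log2 difference of 0.16 between them.

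The change with both agents was compared with the sum of the changes with each. In U-937 the sum of the 2 single log2 changes had a median of -0.05 over the members and ran from -0.74 to 0.69, while the change with both agents had a median of -1.53. The departure from additivity, the change with both agents minus that sum, was below 0 and called in all 44 members, where 15.3% of all genes tested were called below 0 and 8.09% above. Its median was -1.48, against -0.03 over all genes, and 41 members departed by at least 1. These 44 values share the same DMSO, ATRA and Corin libraries. Every alternative run gave 44.

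MYBL2 departed most, by -2.73 ± 0.14 (SE, adjusted p = 1.54e-12): its changes were 0.09 with ATRA, 0.04 with Corin and -2.59 with both. MAD2L1 fell with each agent (-0.42 and -0.33), and its departure was -1.87 ± 0.15 (SE, adjusted p = 2.22e-09). ANLN rose with ATRA (0.63), was at -0.08 with Corin without passing the test, and fell by 1.09 on the log2 scale with both, a departure of -1.65 ± 0.16 (SE, adjusted p = 2.17e-08). NUSAP1 had the same pattern of signs with ATRA and with both agents and departed by -1.70 ± 0.16 (SE, adjusted p = 1.54e-08). BUB3 departed least, by -0.60 ± 0.14 (SE, adjusted p = 0.00344). The direction of the departure was thus the same for genes that rose, fell or did not pass the test with ATRA.

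**Figure D5:**
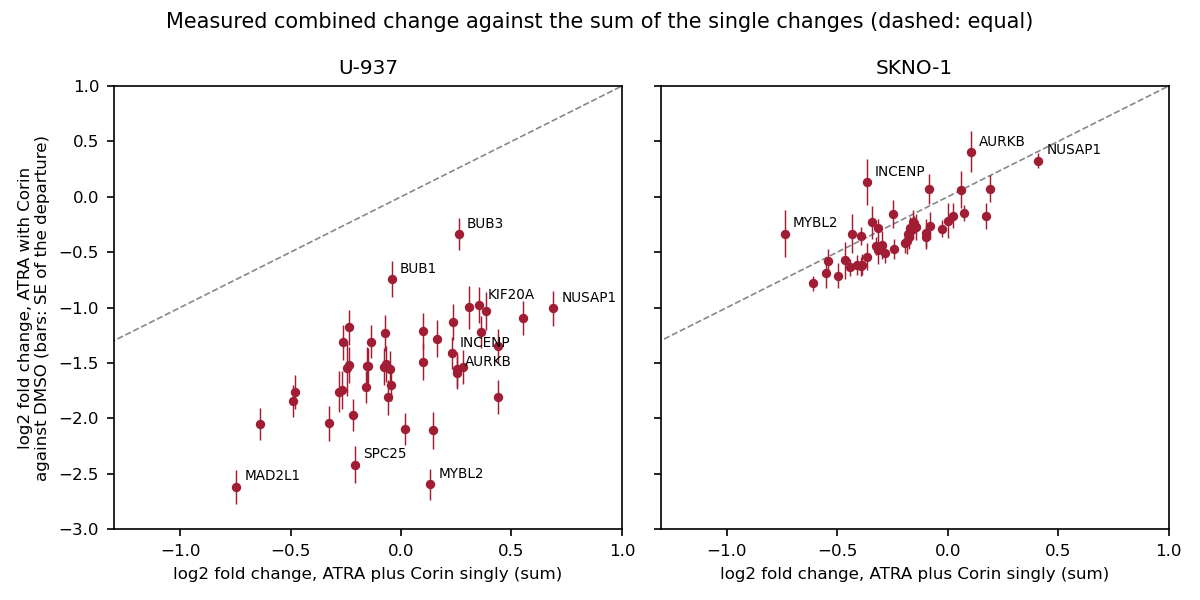
Log2 change with both agents (y axis) against the sum of the log2 changes with each agent alone (x axis), 1 point per member, for U-937 and SKNO-1, with the dashed line for equality and bars for the SE of the departure. In U-937 all 44 points lie below the line, by a median of 1.48, and in SKNO-1 the points lie on both sides of it (median departure -0.15, 0 called).

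Set against each agent alone in U-937, the 44 members were all lower with both agents than with ATRA (median -1.63, where 24.8% of all genes were lower) and 43 were lower than with Corin (median -1.37, where 30.6% were lower and 29.9% higher). The exception was BUB3, at -0.14 ± 0.10 (SE, adjusted p = 0.235) against Corin. MAD2L1 was lower by 2.20 on the log2 scale than with ATRA and by 2.29 than with Corin. KIF20A, which ATRA raised, was lower by 1.55 than with ATRA and by 0.76 than with Corin.

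In SKNO-1, Corin alone lowered 20 of the 44 members and raised 2, where 17.3% of the 17479 genes tested fell and 20.5% rose. The 20 were 45.5% of the members, the median log2 change was -0.20, against 0.00 over all genes, and no member changed by 1 or more. All 5 checkpoint genes and both transcription factors were among those that fell, with 3 of 6 cyclins and CDK1 regulators and 1 of 7 centromere and kinetochore genes. Both Corin libraries were below both DMSO libraries for 27 members (30.9% of all genes) and above for 4 (33.8%). The count of 22 called rested on the libraries: leaving out DMSO replicate 1 gave 29, DMSO replicate 2 gave 31, and it was 11 without Corin replicate 1 and 8 without Corin replicate 2 or in a fit of the 4 libraries compared.

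MYBL2 was at 95.2 and 68.5 CPM with DMSO, 76.7 and 83.7 with ATRA, 50.5 and 47.2 with Corin and 60.5 and 65.3 with both agents in SKNO-1. Its DMSO libraries differed widely, both Corin libraries were below them and the libraries with both agents lay between, with a change of -0.74 ± 0.15 (SE, adjusted p = 0.00645) for Corin. MAD2L1 was at 97.7 and 122 CPM with DMSO, 115 and 119 with ATRA, 70.96 and 65.9 with Corin and 66.02 and 65.4 with both agents, below DMSO in each library with Corin and within it with ATRA (-0.68 ± 0.09 SE, adjusted p = 0.00103). CCNA2 was at 129 and 156 CPM with DMSO, 145 and 145 with ATRA, 98.7 and 94.3 with Corin and 83.6 and 84.4 with both agents. It too was lower in the 4 libraries with Corin than in the 4 without, and its change with Corin was -0.56 ± 0.08 (SE, adjusted p = 0.00124). CCNB1 followed the same order at 194 and 201 CPM with DMSO, 181 and 182 with ATRA, 136 and 137 with Corin and 110.0 and 112 with both agents (-0.53 ± 0.05 SE, adjusted p = 0.000172).

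PLK1 was at 24.5 and 20.4 CPM with DMSO, 20.9 and 22.8 with ATRA, 15.8 and 17.7 with Corin and 17.6 and 16.97 with both agents and fell with Corin (-0.43 ± 0.13 SE, adjusted p = 0.0296). NUF2 was at 45.3 and 51.2 CPM with DMSO, 43.2 and 43.1 with ATRA, 35.4 and 36.7 with Corin and 30.5 and 31.7 with both agents and fell with Corin (-0.42 ± 0.07 SE, adjusted p = 0.00354), and CDC20, at 70.6 and 58.7 CPM with DMSO, 62.3 and 65.3 with ATRA, 50.3 and 50.1 with Corin and 50.6 and 55.8 with both agents, fell by less (-0.36 ± 0.10 SE, adjusted p = 0.0276). In all 3 the libraries with Corin lay below both DMSO libraries. CDCA8 was at 49.9 and 47.4 CPM with DMSO, 47.6 and 50.3 with ATRA, 36.7 and 39.7 with Corin and 32.4 and 37.1 with both agents (-0.34 ± 0.09 SE, adjusted p = 0.0194 with Corin). BIRC5 was at 198 and 169 CPM with DMSO, 179 and 181 with ATRA, 158 and 148 with Corin and 159.5 and 158 with both agents, and its change with Corin stood just inside the threshold (-0.26 ± 0.09 SE, adjusted p = 0.0496). ANLN, at 155 and 187 CPM with DMSO, 180.3 and 176 with ATRA, 141 and 139.9 with Corin and 126 and 131 with both agents, fell as well (-0.27 ± 0.08 SE, adjusted p = 0.0255), its Corin libraries lying below both DMSO libraries. The other members that fell with Corin in SKNO-1 changed by -0.17 (BUB3) to -0.39 (TTK).

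The 2 members that rose with Corin in SKNO-1 were NUSAP1 and TOP2A. NUSAP1 was at 198 and 211 CPM with DMSO, 194 and 190.1 with ATRA, 282 and 281 with Corin and 245 and 251 with both agents. All 4 libraries with Corin were above all 4 without it, and the change with Corin was 0.46 ± 0.05 (SE, adjusted p = 0.000375). With any 1 library left out the change was 0.41 to 0.47. Leaving out libraries does not address the reads that overlapping genes can share with NUSAP1, as given above. TOP2A was at 786 and 862 CPM with DMSO, 734 and 726 with ATRA, 970.0 and 934 with Corin and 714 and 722 with both agents. Its Corin libraries were above all others and those with both agents were the lowest, with a change of 0.21 ± 0.05 (SE, adjusted p = 0.016) for Corin that was lost without Corin replicate 1 (0.18, adjusted p = 0.118), without Corin replicate 2 (0.24, adjusted p = 0.059) and with a GC correction (0.17, adjusted p = 0.0553). The windows printed above hold CHR elements and CCAAT boxes for both genes.

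With both agents in SKNO-1, 30 members fell and 2 rose, where 22.0% of all genes tested fell and 24.7% rose. The 30 were 68.2% of the members. Their changes were smaller than in U-937: the median over the 44 was -0.33, against 0.06 over all genes, and the summed CPM went from 6461 and 7063 with DMSO to 5071 and 5184 with both agents. Both libraries were below both DMSO libraries for 38 members (34.7% of all genes) and above for 2 (35.5%). All 5 checkpoint genes, 6 of 7 centromere and kinetochore genes and 7 of 10 kinesins and spindle proteins fell. The number called was 21 in a fit of the 4 libraries compared and 23 to 37 when a library was left out.

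CCNB1 had the largest fall with both agents in SKNO-1, -0.78 ± 0.05 (SE, adjusted p = 2.01e-05), followed by CCNA2 (-0.71 ± 0.08 SE, adjusted p = 0.000288), MAD2L1 (-0.69 ± 0.09 SE, adjusted p = 0.000694) and BUB1 (-0.64 ± 0.05 SE, adjusted p = 6.35e-05). MKI67 was at 581 and 808 CPM with DMSO, 588 and 583 with ATRA, 569 and 587 with Corin and 461 and 437 with both agents. DMSO replicate 2 was far above replicate 1, both libraries with both agents were below all others, and the change was -0.58 ± 0.12 (SE, adjusted p = 0.00552). KIF20A, at 136 and 133 CPM with DMSO, 120.0 and 118 with ATRA, 117 and 109 with Corin and 84.8 and 83.8 with both agents, fell (-0.63 ± 0.06 SE, adjusted p = 0.000149), and so did ECT2, at 123 and 153 CPM with DMSO, 120.5 and 119 with ATRA, 125 and 124 with Corin and 93.02 and 97.7 with both agents (-0.48 ± 0.09 SE, adjusted p = 0.003). ASPM was at 357 and 414 CPM with DMSO, 368 and 341 with ATRA, 383 and 375 with Corin and 279 and 299 with both agents, with the libraries with both agents below DMSO (-0.36 ± 0.07 SE, adjusted p = 0.00467). For each of these 4 genes the libraries with both agents were the lowest.

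The kinetochore motor CENPE was at 164 and 179 CPM with DMSO, 162 and 143 with ATRA, 152 and 139.8 with Corin and 107 and 121 with both agents in SKNO-1 (-0.54 ± 0.09 SE, adjusted p = 0.00171 with both agents). TPX2 was at 185 and 204 CPM with DMSO, 185 and 189 with ATRA, 176 and 172 with Corin and 148 and 149.7 with both agents (-0.34 ± 0.06 SE, adjusted p = 0.00198). SPC25 was at 22.8 and 24.7 CPM with DMSO, 23.8 and 23.2 with ATRA, 21.6 and 20.6 with Corin and 18.9 and 19.02 with both agents (-0.27 ± 0.08 SE, adjusted p = 0.027). The libraries with both agents were the lowest here too. UBE2C was at 67.95 and 63.8 CPM with DMSO, 63.9 and 69.3 with ATRA, 63.5 and 56.5 with Corin and 52.7 and 53.6 with both agents, with a change of -0.26 ± 0.08 (SE, adjusted p = 0.0358). CDC25C, at 11.6 and 12.5 CPM with DMSO, 11.01 and 11.8 with ATRA, 12.8 and 11.8 with Corin and 10.4 and 9.68 with both agents, did not pass the test (-0.21 ± 0.11 SE, adjusted p = 0.149), although its libraries with both agents were the lowest, as for UBE2C. SPC24, at 68.2 and 54.3 CPM with DMSO, 63.6 and 66.5 with ATRA, 59.9 and 57.3 with Corin and 58.7 and 65.3 with both agents, did not pass the test (0.07 ± 0.12 SE, adjusted p = 0.681), and its libraries with both agents lay between the DMSO values.

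The 2 members that rose with both agents in SKNO-1 were NUSAP1 (0.33 ± 0.05 SE, adjusted p = 0.00137, with 0.29 to 0.34 when any 1 library was left out) and AURKB. In TPM, NUSAP1 was at 88.6 ± 21.2 (SD) with DMSO and 91.9 ± 6.89 with both agents, a difference within that spread. AURKB was at 15.5 ± 0.905 and 16.6 ± 1.02 TPM. The authors' deposited table called neither higher. AURKB was at 19.2 and 15.2 CPM with DMSO, 17.96 and 18.0 with ATRA, 17.8 and 16.7 with Corin and 21.9 and 22.2 with both agents. Its libraries with both agents were the highest, with a change of 0.41 ± 0.13 (SE, adjusted p = 0.0338), and the call was lost without DMSO replicate 2 (0.21, adjusted p = 0.0583) and without either library with both agents (0.41, adjusted p = 0.122, and 0.39, adjusted p = 0.14). In U-937, AURKB fell with both agents, as given above. KIF23, again outside the counts, was at 97.04 and 106 CPM with DMSO, 97.4 and 95.2 with ATRA, 91.4 and 83.98 with Corin and 72.9 and 66.5 with both agents in SKNO-1, lowest with both agents.

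ATRA alone lowered 1 member in SKNO-1, the securin gene PTTG1 (-0.29 ± 0.06 SE, adjusted p = 0.02), and raised none, where 3.79% of all genes fell and 2.96% rose (6.76% in all). The median log2 change was -0.03, against 0.01 over all genes. Both ATRA libraries were below both DMSO libraries for 17 members (23.0% of all genes) and above for 0 (17.3%). Leaving out DMSO replicate 1 gave 18 and DMSO replicate 2 gave 14, and the count was 0 without either ATRA library, with the replicate block or in a fit of the 4 libraries compared. MYBL2 and BIRC5, whose ATRA libraries lay between the DMSO libraries, were called lower (-0.27 and -0.16) with DMSO replicate 2 left out.

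Adding Corin to ATRA in SKNO-1 lowered 29 members and raised 1 (21.8% of all genes were lower and 23.0% higher), with a median of -0.31. MAD2L1 (-0.82), CCNA2 (-0.77) and CCNB1 (-0.70) differed most, and NUSAP1 was higher (0.38 ± 0.05 SE, adjusted p = 0.000717). The number called fell to 16 to 20 when a library was left out, with 17 and 16 without ATRA replicate 1 and 2 and 18 and 20 without replicate 1 and 2 of both agents, and it was 40 in a fit of the 4 libraries compared. Adding ATRA to Corin lowered 9 members and raised none (5.60% of all genes were lower and 4.82% higher), with a median of -0.17. These were CENPF (-0.42 ± 0.07 SE, adjusted p = 0.00836), KIF20A, TOP2A, ASPM, DLGAP5, NEK2, BUB1, CCNB1 and PTTG1. That count was 0 to 2 with a library of either group left out, 5 with the block and 33 in a fit of the 4 libraries compared.

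The departure from additivity in SKNO-1 was called in none of the 44 members by edgeR's quasi-likelihood test or by DESeq2, where 0.463% of all genes were called, 0.149% below 0 and 0.315% above. At an unadjusted p under 0.05, 12 members departed, 11 below 0 and 1 above, where 14.2% of all genes did in either direction. The median departure was -0.15, and leaving out DMSO replicate 2 gave 22 calls and DMSO replicate 1 gave 1. The sum of the 2 single changes had a median of -0.22, beside -0.33 with both agents.

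The difference between the lines in each response was tested directly in all 16 libraries. For both agents, the response of 41 members was lower in U-937 than in SKNO-1 and that of none was higher, where 22.7% of all genes were lower and 17.9% higher. The median difference was -1.19, against -0.11 over all genes. MYBL2 differed most (-2.22 ± 0.17 SE, adjusted p = 4.27e-09), followed by SPC25 (-2.10 ± 0.15 SE, adjusted p = 2.15e-09). The 3 members not called were BUB1 (-0.06), BUB3 (-0.05) and KIF20A (-0.31 ± 0.15 SE, adjusted p = 0.11). BUB1 and BUB3 also had the smallest changes with both agents in U-937.

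For ATRA, the response was higher in U-937 for 7 members and lower for 1, where 10.6% of all genes were higher and 8.81% lower. The 7 were KIF20A (0.75 ± 0.15 SE, adjusted p = 0.00102), NUSAP1 (0.66 ± 0.14 SE, adjusted p = 0.00196), ANLN, MKI67, TOP2A, BUB3 and UBE2C, and MAD2L1 was lower (-0.50 ± 0.15 SE, adjusted p = 0.0256). The number called was 3 without U-937 DMSO replicate 1, U-937 ATRA replicate 2 or either SKNO-1 ATRA library, 4 without U-937 DMSO replicate 2, and 13 with a GC correction. For Corin, the response was higher in U-937 for 2 members and lower for none (5.28% and 7.49% of all genes). These were MYBL2 (0.78 ± 0.16 SE, adjusted p = 0.00327) and CCNB1 (0.52 ± 0.15 SE, adjusted p = 0.0234), both of which fell with Corin in SKNO-1 and did not pass the test in U-937. Their number ran from 1 to 6 when a library was left out.

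A list of 89 other mitotic genes was read from the same fits. In U-937 with both agents 77 of them fell and 1 rose, with a median of -1.43, where 32.2% of all genes tested fell and 33.1% rose. All 8 condensin genes fell (median -1.84, NCAPD3 at -2.21), as did all 14 inner kinetochore genes (median -1.64, CENPM at -3.13) and all 7 other mitotic kinesins (median -1.51). Of 11 cohesin genes 9 fell (SGO1, the protector of centromeric cohesion, at -1.86), and of 6 genes of the KNL1 and MIS12 complexes 4 fell (DSN1 at -2.54). The 14 APC/C subunits and regulators had a median of -0.62, with 10 lower, among them ANAPC1 at -1.92, and CDC26 higher at 0.65. Of 11 genes of the DREAM and MuvB complexes, which repress and activate the late cell cycle genes, 8 fell (median -1.16, E2F5 at -4.53). CDC25A, the phosphatase that acts before CDC25C, had a change of -3.92. Beside these, 16 MCM and origin licensing genes all fell with a median of -3.52.

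With ATRA alone in U-937, 18 of the 89 other mitotic genes rose and 17 fell (median 0.04), shares near those of all genes (21.7% and 20.1%). The largest fall of these genes was that of E2F5, of the DREAM and MuvB list (-2.80 ± 0.19 SE, adjusted p = 3e-11). The APC/C regulator FBXO5 had the largest rise (0.80) and the subunit ANAPC1 fell (-0.89), and among the 14 APC/C subunits and regulators 4 rose and 4 fell. With Corin alone 1 rose and 7 fell (median -0.09), where 8.55% and 4.40% of all genes did. In SKNO-1 none of 88 tested passed with ATRA, where 2.96% of all genes rose and 3.79% fell. With Corin 46 fell and 2 rose (median -0.31), where 17.3% and 20.5% of all genes did, and with both agents 57 fell and 1 rose (median -0.33), where 22.0% and 24.7% did. The 2 that rose with Corin were the condensin subunit NCAPD2 (0.23) and the inner kinetochore gene CENPU (0.35). The MuvB subunit LIN9 had the largest fall of its complex with both agents in SKNO-1 (-1.005). The 16 licensing genes had medians of -0.61 with Corin and -0.36 with both agents in SKNO-1.

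The authors' deposited tables, from DESeq2, called all 44 members lower with both agents in U-937, where 24.3% of the genes with an adjusted p in that table were lower. In SKNO-1 the authors' deposited table called 21 members lower and none higher with both agents (13.4% of its genes were lower) and 7 lower and 1 higher with Corin (9.77% lower and 11.3% higher). For ATRA, the authors' deposited tables called 13 higher and 1 lower in U-937 (18.9% and 19.3% of the table's genes) and none in SKNO-1 (1.63% and 2.02%). For Corin in U-937, the authors' deposited table called 6 lower and none higher (4.12% and 6.82%).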

How the data were processed

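For 16 libraries, the authors deposited RSEM's estimated counts and TPM of each gene. The submitters' processing notes name Trimmomatic, STAR, RSEM, deepTools and DESeq2 with hg38. The authors' deposited tables give log2 fold changes and adjusted p-values. The labels name paired-end reads of 100 bp, whereas length minus effective length was 99.66 bases. Annotation release and strand use in counting are not given in the sources used here. Of the positive values 20.4% were not whole.

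Estimated counts were rounded, which changed totals by at most 42.03. Genes were filtered by filterByExpr (17717 in U-937, 17479 in SKNO-1, 19872 in both lines), scaled by TMM and tested with edgeR 4.0.16 in R 4.3.3 (4 residual degrees of freedom per line; biological coefficient of variation 0.0945 in U-937, 0.107 in SKNO-1, 0.101 in both). DESeq2 1.42.0 and the settings of the closing section were alternatives. Scripts were tested on simulated data. GENCODE 44 gave gene positions.

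Members, lists and tests were chosen with earlier results of these data known. By rule, every library's value is given for 23 members: in each role group the largest change with both agents in U-937 and with Corin in SKNO-1, those called against the majority of members in a comparison, and the largest differences between lines.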

Additional observations from a re-analysis of the deposited data

Results flagged for a closer look

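The response to both agents differed between the lines by the direct test for 41.0 of the 44 members, each lower in U-937, where 40.6% of all genes tested differed in either direction. MYBL2 differed by -2.22 and SPC25 by -2.10 on the log2 scale (U-937 minus SKNO-1).

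For ATRA the response differed between the lines for 8.0 members, a share near the 19.4% of all genes tested that differed. KIF20A (0.75) and NUSAP1 (0.66) responded higher in U-937, and MAD2L1 (-0.50) lower.

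For Corin it differed for 2.0 members, MYBL2 (0.78) and CCNB1 (0.52), both lower in SKNO-1 with Corin, where 12.8% of all genes tested differed, so the count is below the share of all genes. Groups of 2 libraries cannot be searched for a single library that stands apart.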

How the results depend on the processing

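Alternatives were DESeq2, library totals in place of TMM, no filter on low counts, a replicate block, a GC correction with and without the block, a fit of the 4 libraries compared and leaving out each library. With both agents in U-937 the count ran from 43 to 44 when a library was left out, and the departure from additivity stayed at 44. Both agents against ATRA alone in U-937 gave 44 in every alternative, against Corin alone 43 to 44, and the difference between the lines for both agents 41 to 42. The counts given next moved, and the cause was not tested. In U-937 the count for ATRA was 7 to 11 with a library left out, and for Corin it was 3 with a GC correction, 3 with the GC correction and block together and 3 to 8 with a library left out. In SKNO-1 the count for ATRA was 3 without a filter, 0 in the fit of 4 libraries and 0 to 18 with a library left out, and for Corin 8 in the fit of 4 libraries and 8 to 31 with a library left out. For both agents in SKNO-1 it was 21 in the fit of 4 libraries, and against ATRA alone 16 to 20 with a library left out. Against Corin alone it was 16 with DESeq2, 15 without a filter, 4 with a GC correction, 2 with the GC correction and block, 33 in the fit of 4 libraries and 0 to 2 with a library left out. The departure from additivity in SKNO-1 was called in 2 members without a filter and in 0 to 22 with a library left out. Between the lines, the count for the ATRA response was 13 with a GC correction and 3 to 10 with a library left out, and for the Corin response 4 with library totals, 6 with a GC correction, 4 with the GC correction and block and 1 to 6 with a library left out. Of 2070 values of single genes under alternatives, 1883 kept direction and side of the threshold, 105 lost the call, 80 gained it and 2 reversed. These were MYBL2 (-0.27) and BIRC5 (-0.16) for ATRA in SKNO-1 without DMSO replicate 2, beside 0.24 and 0.11 without DMSO replicate 1. The fit of the 4 libraries was not run for additivity or between the lines. The 2070 values covered only the 23 members given with every library, in 8 comparisons. Those members were picked largely for the size of their changes, so the share kept does not describe all 44.

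Replicate numbers are shared by the groups, but nothing shows that they pair the libraries. Replicate differences of the groups correlated across genes between -0.447 and 0.418 in U-937 and between -0.488 and 0.236 in SKNO-1 (6 pairs of groups each). With the replicate number as a block the counts were 12 (ATRA), 3 (Corin) and 44 (both agents) in U-937, and 0, 19 and 29 in SKNO-1, with 5 for both agents against Corin alone. With 2 libraries per group, small changes may not be detectable.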
